A study of Mus musculus with 6 samples.

Results

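The p53 target genes described here are 10 genes that the transcription factor p53 is known to switch on: Mdm2, Cdkn1a, Ccng1, Bax, Bbc3, Pmaip1, Trp53inp1, Sesn1, Phlda3 and Eda2r. They were found by symbol in the deposited gene table, and all 10 were among its 21927 rows. The tissue was cerebellar vermis, the strip along the midline of the cerebellum, of 8-week-old mice, and its RNA was sequenced. There were 3 libraries of LINE-1a mice, in which the retrotransposon LINE-1 is activated, and 3 of dCas mice as controls. The level of LINE-1 in these libraries is not reported here. The labels name a tissue, an age and a strain name for each library and nothing else about the mice, so the alleles, promoters and guides that the LINE-1a and dCas groups carry, and what they share, cannot be stated here.

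The p53 protein is kept low in resting cells by MDM2, a ligase that marks it for destruction, and accumulates after DNA damage and other stress. It then binds a DNA element made of 2 like half-sites and raises the transcription of genes that stop the cell cycle (Cdkn1a), open mitochondria for cell death (Bax, Bbc3, Pmaip1), tune growth and survival signals (Sesn1, Phlda3) and feed back on p53 itself (Mdm2, Ccng1). In adult cerebellum most neurons no longer divide. The comparison asked whether this set of genes differed between the vermis of LINE-1a mice and that of dCas mice.

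Promoter sequence was looked up in the RefSeq table for GRCm38.p6, as the 300 bases from 250 before to 50 after each annotated start, and 8 of the 10 genes had at least 1 entry, all except Pmaip1 and Trp53inp1. The p53 half-site consensus, 10 bases long and its own reverse complement, was found exactly in 5 of the 12 windows of these 8 genes (41.7%), 1 window in each of 5 genes, and in 8.36% of all 32851 windows of the same length. A pair of half-sites at most 13 bases apart with at most 2 mismatches in all, none in the central C and G of a half-site, was found in 4 of the 12 windows (33.3%), those of Cdkn1a, Ccng1, Bax and Sesn1, and in 4.09% of all windows. These matches are letters in a window and say nothing of binding in these mice. The 5 stretches are shown because they hold the letters of the half-site in the windows searched, and the elements through which p53 is known to act on a gene can lie outside such a window. Each runs 5′ to 3′ on the strand of its gene, with 30 bases on either side of the match, and capitals mark the pair of half-sites or, in Mdm2, the single half-site.
Cdkn1a (chr17:29090898-29090977, plus strand, 51 bases before the more distal start): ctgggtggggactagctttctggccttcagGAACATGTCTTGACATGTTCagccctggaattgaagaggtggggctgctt
Ccng1 (chr11:40755432-40755511, minus strand): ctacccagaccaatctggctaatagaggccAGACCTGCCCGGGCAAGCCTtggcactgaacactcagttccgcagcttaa
Bax (chr7:45467049-45467129, minus strand): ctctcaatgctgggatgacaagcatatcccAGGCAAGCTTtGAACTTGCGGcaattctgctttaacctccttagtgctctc
Sesn1 (chr10:41887223-41887305, plus strand): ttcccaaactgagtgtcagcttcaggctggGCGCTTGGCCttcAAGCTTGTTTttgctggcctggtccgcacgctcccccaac
Mdm2 (chr10:117710905-117710974, minus strand): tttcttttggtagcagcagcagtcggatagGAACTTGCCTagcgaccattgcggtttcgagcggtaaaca
The pairs in Cdkn1a and Ccng1 have no bases between the half-sites and 1 mismatch each, the pair in Bax has 1 base between and 2 mismatches, and the pair in Sesn1 has 3 bases between and 2 mismatches. Where more than 1 pair met these limits, the pair with the fewest bases between is in capitals. The window of Cdkn1a also holds an exact half-site that starts 73 bases before the start, left in lower case, which makes a pair with 12 bases between and 0 mismatches, and Ccng1, Bax and Sesn1 each hold 1 further pair with 5 bases between and 2 mismatches. No match was found in the windows of Bbc3, Phlda3 and Eda2r.

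The deposited values are normalized counts, which are reads per gene divided by 1 size factor per library, and the libraries held between 23483158 and 33445789 reads over all rows. Gabra6, a receptor subunit of cerebellar granule cells, lay between 14572 and 17492 normalized counts, and Pcp2, a marker of Purkinje cells, between 10837 and 20644, so markers of the labelled tissue were present in every library. The Y-linked genes checked reached at most 3.23 in the first 2 LINE-1a libraries and lay between 533 and 1863 in the other 4 libraries, so group and sex are partly confounded. The labels do not say whether each library is 1 mouse or give litters or days, so the p-values here cover only the spread among 6 libraries, part of which may be technical. In bulk tissue, fewer cells of a type and less RNA per cell cannot be told apart.

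None of the 10 genes passed the test between LINE-1a and dCas vermis. In limma on log2(normalized count + 1), with Benjamini-Hochberg adjustment over 15800 features, 0 of 10 had an adjusted p under 0.05, where 0.146% of all features did. edgeR and DESeq2, run on the reads recovered from the table, also called 0 of 10, with 0.146% and 0.899% of all features called. At an unadjusted p under 0.05 in limma, Bbc3 and Trp53inp1 were higher in LINE-1a libraries and Pmaip1 lower, which is 3 of 10 genes where 15.3% of all features reached that level. The groups did not overlap for 3 of 10 genes, Trp53inp1 and Mdm2 as higher and Pmaip1 as lower, where 22.1% of all features did not overlap (9.88% as higher and 12.3% as lower). The median log2 fold change was 0.07 over the 10 genes and 0.03 over all features tested, and 6 of 10 lay above 0, where 52.9% of all features did. With the libraries weighted by quality (limma array weights), an alternative that called 7.72% of all features, Mdm2 (adjusted p = 0.0481) and Bbc3 (adjusted p = 0.045) passed as higher. With sex as a covariate the adjusted p was 0.773 for both, at log2 fold changes of 0.48 for Mdm2 and 1.32 for Bbc3. That fit compares LINE-1a 3 alone with the dCas libraries, since no other LINE-1a library has Y-linked reads.

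**Figure D1:**
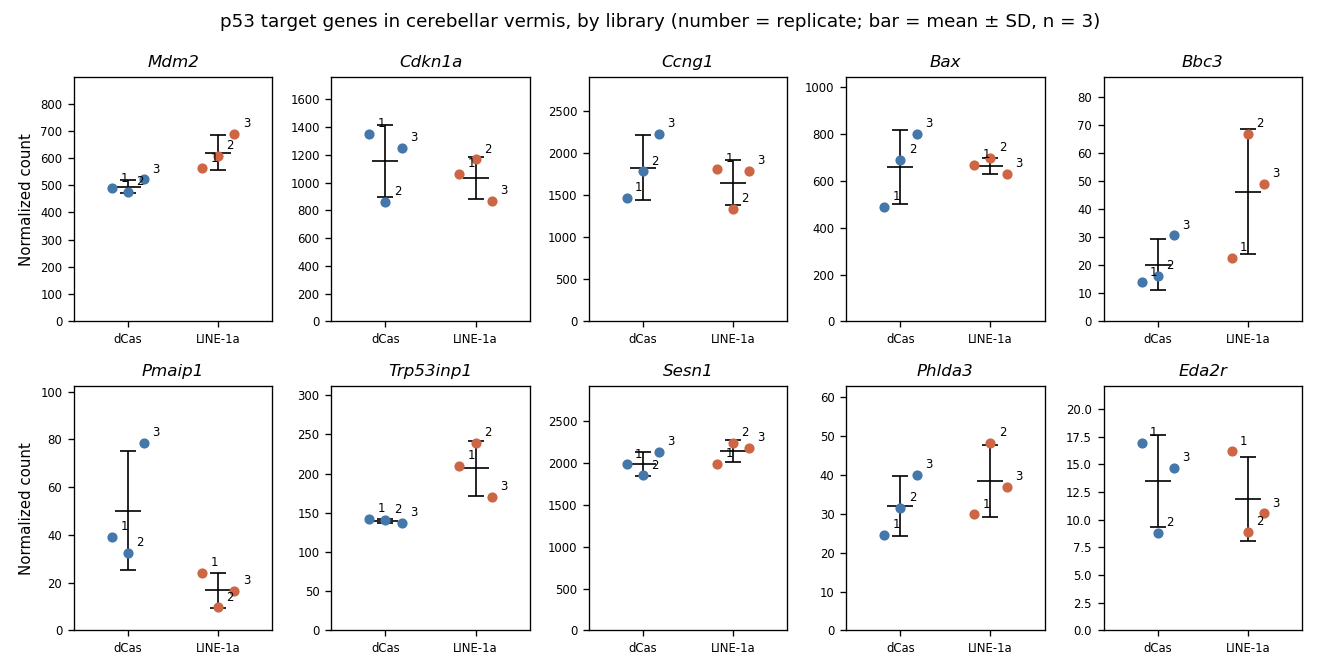
Normalized counts (vertical axes, starting at 0) of the 10 p53 target genes in each library, with dCas in blue and LINE-1a in orange. Numbers are replicates and bars are mean ± SD (n = 3). The groups do not overlap for Mdm2, Trp53inp1 and Pmaip1, and they overlap for the other 7 genes.

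**Figure D2:**
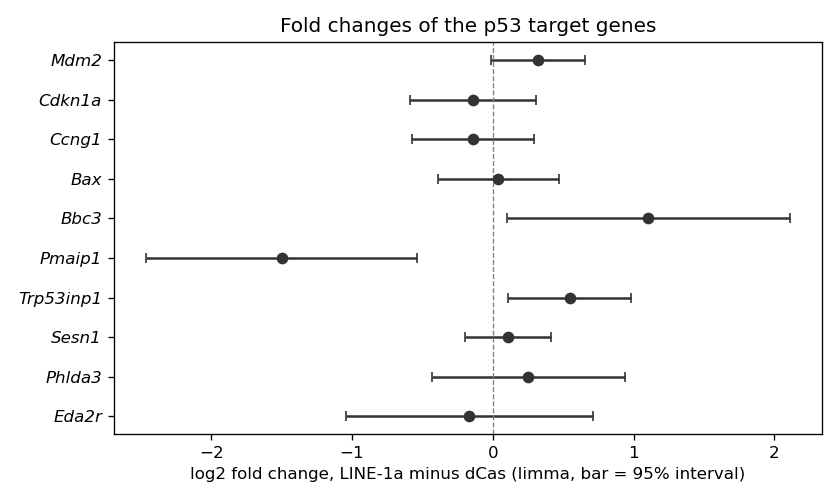
Log2 fold change of each p53 target gene, LINE-1a minus dCas, from limma with its 95% interval, which is not adjusted for the number of genes. The intervals of Bbc3 and Trp53inp1 lie above 0, that of Pmaip1 lies below 0, and the other 7 include 0.

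The feedback arm was read from Mdm2 and Ccng1. Mdm2 (chr10:117688875-117710758, minus strand, GRCm38, as are all positions here), the ligase that degrades p53, was 489, 475 and 522 normalized counts in dCas 1 to 3 and 562, 609 and 690 in LINE-1a 1 to 3. All 3 LINE-1a libraries lay above all 3 dCas libraries, by a fold of 1.25 with a 95% interval of 0.992 to 1.57 (log2 fold change 0.32 ± 0.15 SE, limma adjusted p = 0.327). Mdm4, the relative of Mdm2 that also binds p53 but has no strong ligase activity of its own, was 2828 ± 550 (SD, n = 3) for dCas and 2895 ± 140 for LINE-1a. The log2 ratio of Mdm2 to Mdm4, which no scaling of a library can move, was -2.49 ± 0.34 for dCas and -2.22 ± 0.09 for LINE-1a. The difference of 0.27 had an exact permutation p of 0.3 (two-sided, with 0.1 the smallest p that 3 against 3 allows), and the ratio of dCas 3, at -2.13, lay among those of the LINE-1a libraries.

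Ccng1 (chr11:40748552-40755311, minus strand) codes for cyclin G1, which brings a phosphatase to MDM2. It was 1465, 1781 and 2231 normalized counts in dCas 1 to 3 and 1815, 1336 and 1788 in LINE-1a 1 to 3. The groups overlapped, with the highest value in dCas 3 and the lowest in LINE-1a 2. Its log2 fold change was -0.14 ± 0.19 (SE, limma adjusted p = 0.711), and it was 0.01 without dCas 3 and 0.00 without LINE-1a 2. Trp53, the gene of p53 itself and given here although the naming rule does not pick it, was 522 ± 25.6 for dCas and 447 ± 60.2 for LINE-1a (log2 fold change -0.23, limma adjusted p = 0.448).

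Cdkn1a (chr17:29090976-29100727, plus strand) codes for p21, the inhibitor of cyclin-dependent kinases through which p53 halts division. It was 1354, 860 and 1253 normalized counts in dCas 1 to 3 and 1063, 1169 and 871 in LINE-1a 1 to 3. The LINE-1a values all lay inside the dCas range. Its fold of LINE-1a over dCas was 0.905, with a 95% interval of 0.664 to 1.23. The log2 fold change was -0.14 ± 0.20 (SE, limma adjusted p = 0.716) and -0.38 among the libraries with Y-linked reads, where the LINE-1a group is 1 library. It was -0.02 without dCas 1, -0.07 without dCas 3, -0.02 without LINE-1a 3, -0.24 without LINE-1a 2 and -0.34 without dCas 2. The choroid plexus, the tissue that makes cerebrospinal fluid, differed in content between libraries: its 10 markers summed to 148227 normalized counts in dCas 1, 159036 in LINE-1a 3 and 44347 in the library LINE-1a 2, and to between 8279 and 8682 in the other 3. Among these markers Ttr ran from 144 in dCas 3 to 102965 in LINE-1a 3, while Clic6 was highest in dCas 3, at 760. Cdkn1a was highest in dCas 1 and next to lowest in LINE-1a 3, the 2 libraries with the highest sums. The part of choroid plexus in the values of Cdkn1a was not tested. Annotated exons of a gene on the other strand cover 7.68% of the exon bases of Cdkn1a, and whether counting used strand is not stated.

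Among the cell death genes, the effector and the 2 triggers gave different pictures. Bax (chr7:45461697-45466898, minus strand) codes for the protein that forms pores in the outer mitochondrial membrane. It was 489, 691 and 802 normalized counts in dCas 1 to 3 and 669, 698 and 630 in LINE-1a 1 to 3, so the LINE-1a values lay inside the wider dCas range. Its fold was 1.03, with a 95% interval of 0.762 to 1.38 (limma adjusted p = 0.927), and its log2 fold change was -0.16 without dCas 1 and 0.19 without dCas 3. Bcl2l1, which codes for the inhibitor BCL-xL that holds BAX back, was between 10065 and 10186 in the dCas libraries and 10067, 5827 and 8398 in LINE-1a 1 to 3. The log2 ratio of Bax to Bcl2l1 was -3.96 ± 0.36 for dCas and -3.57 ± 0.45 for LINE-1a, a difference of 0.39 (two-sided exact permutation p = 0.5). Without LINE-1a 2, which had the highest ratio (-3.06), the difference was 0.14. Exons of a second annotated gene on the same strand cover 12.2% of the exon bases of Bax, so reads there are uncertain.

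Bbc3 (chr7:16308393-16318205, plus strand) codes for PUMA, a BH3-only protein that disables the inhibitors of BAX and is one of the main killers downstream of p53 in neurons. It was 13.9, 16.2 and 30.7 normalized counts in dCas 1 to 3 and 22.6, 66.9 and 49.1 in LINE-1a 1 to 3. LINE-1a 2 and LINE-1a 3 lay above every dCas library, and LINE-1a 1 lay below dCas 3. The fold of 2.15 had a wide 95% interval of 1.07 to 4.31 (log2 fold change 1.10 ± 0.45 SE, limma adjusted p = 0.325), and the values rest on 18 to 83 reads. The log2 fold change was 0.78 without LINE-1a 2 and 1.54 without LINE-1a 1.

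Pmaip1 codes for NOXA, a BH3-only protein that mainly neutralises MCL1, and it lay the other way. It was 39.3, 32.4 and 78.7 normalized counts in dCas 1 to 3 and 24.2, 9.68 and 16.6 in LINE-1a 1 to 3, from 12 to 118 reads. Every LINE-1a library lay below every dCas library. The mean was 2.83-fold higher in dCas than in LINE-1a libraries on the log2(value + 1) scale, with a 95% interval of 1.45 to 5.51 (log2 fold change -1.50 ± 0.43 SE). It had the smallest unadjusted p of the 10 genes, 0.00628 in limma, and an adjusted p of 0.325. The adjusted p was 0.0763 in DESeq2 on the recovered reads and 0.0913 in limma without LINE-1a 1, and it ran from 0.0567 with array weights to 0.773 with sex as a covariate over all alternatives. The log2 fold change ran from -1.79 without LINE-1a 1 to -1.13 without dCas 3, and it was -1.43 in LINE-1a 3 against the dCas libraries, all with Y-linked reads. Mcl1 was 402 ± 42.9 for dCas and 483 ± 62.5 for LINE-1a (log2 fold change 0.26, limma adjusted p = 0.422).

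Set side by side in each library, the order of these 2 triggers differed between the groups once their lengths were allowed for. Per kilobase of exon, Bbc3 was 6.53, 7.62 and 14.4 normalized counts and Pmaip1 14.4, 11.9 and 28.8 in dCas 1 to 3, so Pmaip1 was above Bbc3 in each. In LINE-1a 1 to 3 Bbc3 was 10.6, 31.5 and 23.1 per kilobase and Pmaip1 8.87, 3.54 and 6.08, so Bbc3 was above Pmaip1 in each. For LINE-1a 1 that order rests on 28 reads of Bbc3 and 30 of Pmaip1, over exon lengths of 2124 and 2732 bases, so it is uncertain there. In normalized counts not divided by length, Bbc3 was 0.353, 0.5 and 0.39 times Pmaip1 in dCas 1 to 3, and 0.933, 6.92 and 2.95 times Pmaip1 in LINE-1a 1 to 3, so on that scale it stayed below Pmaip1 in LINE-1a 1. The ratio is free of the scaling of a library and did not overlap between the groups. It joins the genes with the highest and the lowest log2 fold change of the 10. Pmaip1 alone already did not overlap, where 22.1% of all features did not, and the share of gene pairs was not counted. The ratio was chosen after the values were seen, so no test was run on it. Markers of several cell types also differed in sum. Of the 8 astrocyte and Bergmann glia markers, 8 had a log2 fold change below 0. They summed to between 200625 and 223362 for dCas and between 91864 and 178638 in the LINE-1a libraries. Aldoc alone was the largest part of each sum, at 102165 to 117556 for dCas and 43896 to 82531 for LINE-1a. Only Gja1, S100b and Aldoc did not overlap between the groups (37.5% of the 8, beside 22.1% of all features). Purkinje cell markers (5 of 6 below 0) summed to between 139772 and 161507 and between 98137 and 124796. Of these, Itpr1, Car8 and Rgs8 did not overlap between the groups, while Calb1 (log2 fold change 0.01), Pcp2 (-0.36) and Pvalb (-0.11) did. Granule cell markers (4 of 6 above 0, median 0.06) summed to between 81088 and 98506 and between 72488 and 84713, with overlap. Oligodendrocyte markers (7 of 7 below 0) summed to between 269850 and 354977 and between 125471 and 287918, with overlap. Endothelial and mural markers (5 of 7 below 0, median log2 fold change -0.51) summed to between 10060 and 11177 and between 6307 and 10303, and microglia markers (5 of 7 above 0, median 0.14) to between 5178 and 7496 and between 4751 and 7292, both with overlap. No marker in these lists was at 0, and none passed the test. Their part in the values of Bbc3 and Pmaip1 was not tested.

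**Figure D3:**
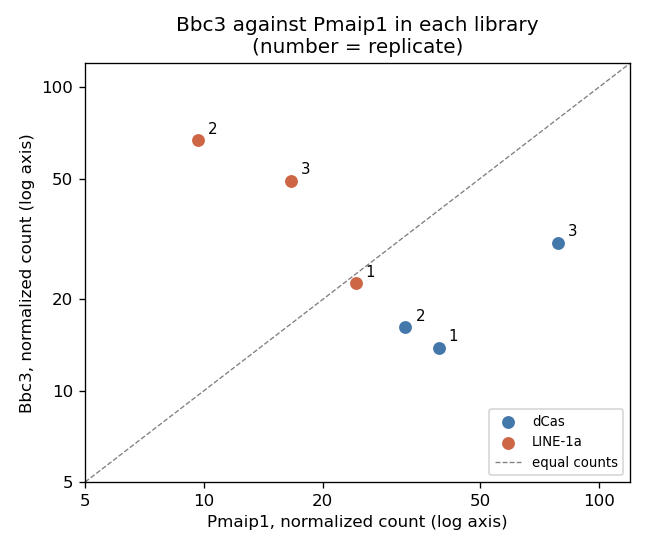
Normalized counts of Bbc3 (vertical, log axis) against Pmaip1 (horizontal, log axis) in each library, with the dashed line where both are equal. The 3 dCas libraries lie below the line, at 0.353 to 0.5 times Pmaip1. LINE-1a 1 lies just below it, and LINE-1a 2 and LINE-1a 3 lie above it. The 2 genes were set side by side after the values were seen.

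Trp53inp1 (chr4:11156431-11174379, plus strand) codes for a stress-induced protein that helps to activate p53 in the nucleus and takes part in autophagy in the cytoplasm. It was 142, 141 and 137 normalized counts in dCas 1 to 3 and 210, 240 and 170 in LINE-1a 1 to 3. The dCas values lay within a factor of 1.04 of each other, the narrowest spread of any of the 10 genes in that group, and all LINE-1a values were above them. The fold was 1.46 with a 95% interval of 1.08 to 1.98 (log2 fold change 0.55 ± 0.19 SE, limma adjusted p = 0.325). LINE-1a 3, the only LINE-1a library with Y-linked reads, had the lowest value of its group and lay 0.28 above the dCas mean on the log2 scale.

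Sesn1 (chr10:41809935-41908424, plus strand) codes for sestrin 1, which restrains the growth kinase complex mTORC1 when amino acids are low. It was 1985, 1853 and 2137 normalized counts in dCas 1 to 3 and 1994, 2247 and 2181 in LINE-1a 1 to 3. The values overlapped, and the fold of 1.08 had the narrowest interval of the 10 genes, 0.87 to 1.33 (limma adjusted p = 0.696). Sesn2 and Sesn3, its relatives, had log2 fold changes of -0.07 and 0.12.

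Phlda3 (chr1:135766119-135769136, plus strand) codes for a small lipid-binding protein that keeps the survival kinase AKT from the membrane. It was 24.7, 31.6 and 40.0 normalized counts in dCas 1 to 3 and 29.9, 48.4 and 37.0 in LINE-1a 1 to 3, with overlap between the groups (log2 fold change 0.25 ± 0.31 SE, limma adjusted p = 0.673). The log2 fold change was 0.08 without LINE-1a 2 or without dCas 1, 0.41 without LINE-1a 1 and 0.42 without dCas 3. Eda2r (chrX:97333840-97377216, minus strand) codes for a receptor of the tumour necrosis factor family that binds a form of ectodysplasin. It was 17.0, 8.83 and 14.7 in dCas 1 to 3 and 16.1, 8.87 and 10.6 in LINE-1a 1 to 3, from 11 to 22 reads. Its 95% interval of fold, 0.485 to 1.64, was too wide to show a moderate difference at this depth. The libraries without Y-linked reads, LINE-1a 1 and LINE-1a 2, had values near the highest and the lowest of all 6. Eda, its ligand gene, was 50.2 ± 10.7 for dCas and 68.3 ± 23.2 for LINE-1a (limma adjusted p = 0.479).

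Levels were compared between genes as normalized counts per kilobase of annotated exon, averaged over the 6 libraries. On that scale Sesn1 was highest at 519 per kilobase, followed by Ccng1 at 494, Bax at 421 and Cdkn1a at 308, and each neighbouring pair overlapped over the libraries. Mdm2 followed at 110 per kilobase, with no overlap with Cdkn1a above it or Trp53inp1 below it. Trp53inp1 at 26.7, Phlda3 at 22.6, Bbc3 at 15.6 and Pmaip1 at 12.3 per kilobase overlapped with their neighbours. The place of Bbc3 above Pmaip1 in this order over both groups held in the LINE-1a libraries and was the other way round in the dCas libraries, as given above. Eda2r was lowest, at 2.15 per kilobase, below the range of Pmaip1. The 3 genes whose log2 fold change was farthest from 0, Pmaip1, Bbc3 and Trp53inp1, were all in the lower part of this order.

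The LINE-1a libraries did not stand apart in the median of the 10 genes. Relative to the dCas mean on the log2 scale, the median of the 10 was -0.13, -0.08 and 0.23 in dCas 1 to 3 and 0.03, 0.14 and 0.06 in LINE-1a 1 to 3. The medians of all 3 LINE-1a libraries lay inside the range of the dCas libraries. The number of genes above the dCas mean was 3, 3 and 9 of 10 in dCas 1 to 3 and 7, 7 and 5 of 10 in LINE-1a 1 to 3. In dCas 3 all but Trp53inp1 were above it, Bax, Ccng1, Phlda3, Bbc3 and Pmaip1 among them.

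**Figure D4:**
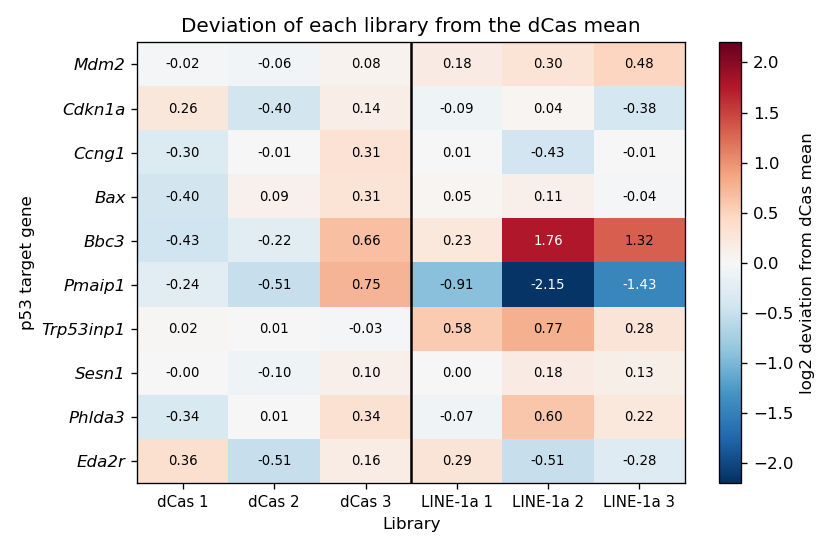
Log2 deviation of each library (columns) from the mean of the dCas libraries for each p53 target gene (rows), with red above and blue below. The LINE-1a columns hold both the highest value, Bbc3 in LINE-1a 2, and the lowest, Pmaip1 in LINE-1a 2, and most other cells are pale.

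The profiles over the 6 libraries were set beside those of all tested features, for the 3 genes with the widest log2 range. Likeness was the root mean square difference of mean-centred log2 values, and it is a description over 6 libraries. Nearest to Pmaip1 were Corin (0.17), Mlph (0.26) and Wif1 (0.28). Corin, a membrane protease, ran from 357 normalized counts in dCas 3 to 53.2 in LINE-1a 2. Nearest to Bbc3 were Tcf3 (0.25), 1700029J07Rik (0.25) and Lhx5 (0.26), of which Tcf3, an E-protein transcription factor, ran from 83.2 in dCas 1 to 258 in LINE-1a 2. Nearest to Phlda3 were Hnrnpdl (0.05), Mblac2 (0.06) and Vps9d1 (0.07). The root mean square spread of the genes themselves was 0.91 for Pmaip1, 0.79 for Bbc3 and 0.30 for Phlda3. A smaller distance for Phlda3 is therefore not by itself a closer match.

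The rest of the pathway was read from 7 further lists, which together held 138 tested genes besides the 10. In limma 0 of these 138 passed over all features (smallest adjusted p = 0.322), 18 (13%) had an unadjusted p under 0.05, and 25 (18.1%) did not overlap between the groups, beside 15.3% and 22.1% of all features. Their median log2 fold change was 0.02.

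Of 39 other p53 targets tested, 21 lay above 0 and 18 below, with a median log2 fold change of 0.02 and 0 past the threshold. Bloc1s2, a subunit of a complex that shapes lysosomes, was 235 ± 68.5 for dCas and 466 ± 93.5 for LINE-1a (log2 fold change 1.01). Abhd4, a lipid hydrolase, was 3285 and 1984 (-0.78), and Steap3, a ferrireductase, was 132 and 66.7 (-0.95). The groups did not overlap for these 3 genes, and the limma adjusted p was 0.322 for Bloc1s2 and 0.325 for the other 2. Over the 39 genes, 17.9% did not overlap, 3 as higher and 4 as lower, beside 22.1% of all features. Of 27 tested members of the p53 family and its regulators, 19 lay above 0 (median 0.09), where 52.9% of all features did. The groups did not overlap for 22.2% of the 27, beside 22.1% of all features, with 3 as higher and 3 as lower. Those lower were Trp53bp1 (-0.45), Kat5 (-0.38) and Wrap53 (-0.35), and those higher were the 3 of smallest p, named next. The 3 of smallest p were Cop1, another ligase for p53, at 532 and 871 (0.70), the acetyltransferase gene Ep300 at 1849 and 2306 (0.32) and the deacetylase gene Sirt1 at 200 and 305 (0.60), each with no overlap and a limma adjusted p of 0.325.

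The BCL2 family, which decides whether mitochondria open, had a median log2 fold change of -0.03 over 13 tested genes, with 6 above 0 and 7 below. Its genes of smallest p were Hrk (-0.48), a BH3-only gene of neurons, Bcl2 (0.41), an inhibitor of cell death, and Bad (-0.24), a BH3-only gene, with limma adjusted p between 0.377 and 0.38. Of the other inhibitors of cyclin-dependent kinases, 4 were tested, with a median of -0.08: Cdkn2d was 1599 and 1271 (-0.32), Cdkn1b, which codes for p27, was 1644 and 1412 (-0.19), and Cdkn1c was 29.9 and 33.9 (0.22). Among 9 tested paralogs of the p53 target genes (median 0.05), Ccng2 (0.36), Trp53inp2 (-0.22) and Phlda1 (0.44) had the smallest p. The paralog Trp53inp2 thus had a log2 fold change below 0 and Trp53inp1 one above 0, a difference that was not tested.

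Among 31 partners of the p53 target genes (median 0.02), the smallest p were those of Ccnd3 (0.70), Wdr24 (-0.45) and Ppp2r5a (0.41). Ccnd3 codes for a cyclin whose kinase p21 binds, and Wdr24 for a subunit of the complex that sestrins bind. Of 26 cell cycle genes that p53 is known to lower, 23 passed the filter on low values, with a median of -0.05 and 12 below 0. Tpx2 (-0.67), Mcm5 (-0.96) and Ect2 (-0.78) had the smallest p, each with no overlap between the groups and a limma adjusted p of 0.325. Over the 23 genes, 13% did not overlap, 0 as higher and 3 as lower. Of all features, 22.1% did not overlap (12.3% as lower).

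**Figure D5:**
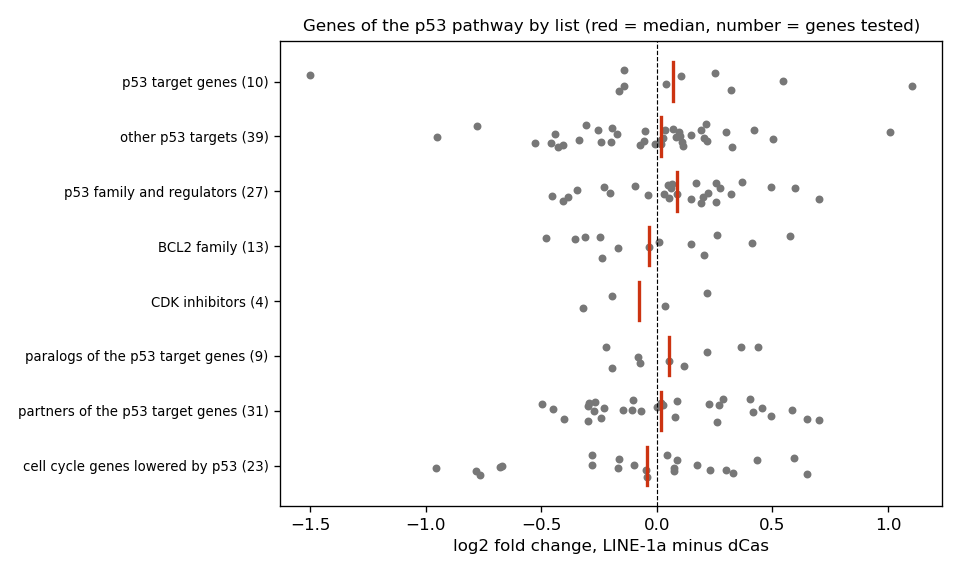
Log2 fold change, LINE-1a minus dCas, of every tested gene in the p53 target genes and 7 further lists of the p53 pathway, with the red line at the median of a list and the number of genes tested in brackets. All medians lie between -0.08 and 0.09, and the points farthest from 0 are Pmaip1 on the left and Bbc3 on the right.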

How the data were processed

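The authors deposited normalized counts, a signal equal to reads per gene divided by 1 size factor per library. The aligners STAR 2.5.3a and Bowtie2 2.2.9 appear in the submitters' processing notes with SAMtools 1.9, bedtools 2.27.1, DESeq2, GRCm38 and mm10, but no step is assigned to any. No source used here states the counter, the annotation or the use of strand. Within each library 100% of values were whole multiples of 1 step, to within 0.001 reads, which gives back the reads.

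Features whose mean reached 10 (15800, of which 530 were repeat elements listed with the genes) were tested with limma 3.58.1 (R 4.3.3), with a mean-variance trend and two-sided, on log2(normalized count + 1). Benjamini-Hochberg adjustment ran over all of them, with a threshold of 0.05. All 10 p53 target genes passed the filter. edgeR 4.0.16 and DESeq2 1.42.0 on the recovered reads were alternatives. The tests were also run on simulated reads. Those held no differences of sex or choroid plexus content between libraries, so they cannot show how the tests act under such differences. Libraries of 1 group differed beyond sampling noise (chi-square per degree of freedom of 26.1 to 130). Exon lengths come from GENCODE M21 on GRCm38. The text names all 10 genes, the 3 genes of smallest p of every other pathway list, none of which had a called gene, and the 3 nearest profiles of 3 genes. Genes named outside that rule (Trp53, Mdm4, Bcl2l1, Mcl1, Sesn2, Sesn3, Eda and those of the closing section) were added for their roles. Trp53bp1, Kat5 and Wrap53 were named because their groups did not overlap. The cell type markers named come from separate marker lists and lie outside that rule too. The choice between overlapping half-site pairs was made after the sequences were seen. The genes and lists were chosen with earlier results of these data known.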

Additional observations from a re-analysis of the deposited data

How the results depend on the processing

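Of 186 fold changes of the 10 genes under 19 alternatives, 174 kept their direction and their side of the threshold, 2 passed it and 10 changed sign. The changes of sign were log2 fold changes of Bax of -0.0129 in DESeq2, -0.0691 with array weights, -0.0399 with sex as a covariate or among the libraries with Y-linked reads (in both, LINE-1a 3 alone against dCas) and -0.16 without dCas 1, of Eda2r of 0.0757 with array weights, 0.0115 without dCas 1 and 0.00489 without LINE-1a 2, and of Ccng1 of 0.0134 without dCas 3 and 0.00191 without LINE-1a 2. With 1 library left out, Bax ran from -0.163 to 0.193, Cdkn1a from -0.343 to -0.0158, Phlda3 from 0.0752 to 0.419, Sesn1 from 0.0537 to 0.157, Ccng1 from -0.29 to 0.0134 and Eda2r from -0.423 to 0.0115. A filter at a mean of 50 left 6 of the 10 genes. With array weights, estimated gene by gene because the default estimate did not converge (a choice made after seeing the data), 2 of the 10 genes passed, with 1220 features called, and the cause was not tested. The number of the 10 genes called was 0 in each of the 18 other alternatives. The features called numbered 23 in the main test, 36 with the same total in every library, 142 in DESeq2, 3 with sex as a covariate, 0 among the libraries with Y-linked reads (fewer samples), and 11 to 40 when 1 library was left out. With the same total, the median log2 fold change of all features was 0.15 and that of the 10 genes 0.19. The log2 ratio of Bax to Bcl2l1 differed by 0.14 to 0.56 and that of Mdm2 to Mdm4 by 0.12 to 0.45 when 1 library was left out. The deviations of same-numbered libraries had correlations of -0.21, 0.14 and -0.09, and those of differently numbered libraries ran from -0.18 to 0.23. With 3 libraries per group this cannot decide whether the numbers pair them. With the replicate block 24 features and 0 of the 10 genes passed. Low counts limit Eda2r, Pmaip1, Bbc3 and Phlda3 most, with 11 to 118 reads per library.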

Other observations

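Among the partners of p21, the genes of the D-type cyclins, which drive the start of the cell cycle with CDK4 and CDK6, all had a log2 fold change above 0, as did 52.9% of all features tested. This was noticed after the values were seen, and none passed the test. Of all 31 tested partners of the p53 target genes, 16 lay above 0 and 15 below. The groups did not overlap for 16.1% of the 31, beside 22.1% of all features (9.88% as higher). Ccnd3 was 369, 366 and 273 normalized counts in dCas 1 to 3 and 562, 595 and 476 in LINE-1a 1 to 3, with no overlap (log2 fold change 0.70 ± 0.18 SE, limma adjusted p = 0.325). Ccnd2 was 358 ± 118 for dCas and 527 ± 106 for LINE-1a (0.59), and Ccnd1 was 863 ± 161 and 1041 ± 47.5 (0.28), both with overlap between the groups. Rb1, the brake on which these cyclins act, was 1076 ± 217 and 1477 ± 298 (0.45), also with overlap. Cdk6 (0.49) lay above 0 and Cdk4 (-0.15) below it, and both overlapped between the groups.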
